A study of Homo sapiens with 16 samples.

Results

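The promoters described here carried nucleosomes over the transcription start site (TSS). They were chosen by their signal there in 1 table, the light digest of untreated cells with micrococcal nuclease (MNase). Signal is in fragments relative to the depth of a table (rpm). D is log2 of the mean signal from -100 to +40 bp over the mean signal of the whole 2 kb, with 0.1 rpm added to both. Promoters with a mean of 0.5 rpm or more were eligible, and those with D above 0.3 were chosen. These were 2726 of 19988 eligible promoters (13.6%, exact 95% interval 13.2 to 14.1), of 21857 promoters in all. They are called members below, and the other 17262 eligible promoters are the comparison. Of the remaining promoters, 1798 had a lower mean and 71 had no value over the TSS. Because the untreated light table chose the members, its values are a description: D of the members ran from 0.30 to 2.49 with a median of 0.72, while the median over all eligible promoters was -1.50. Just inside the threshold lay EFCAB3 (0.3008), TMEM233 (0.3012) and ARL6IP1 (0.3017), and just outside lay LOC340073 (0.2999), UGT2B4 (0.2998) and IGFL4 (0.2997).

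At most human promoters the DNA just upstream of the TSS is poor in nucleosomes, because the transcription machinery and its factors occupy it, and ordered nucleosomes flank this gap. At promoters without such a gap a nucleosome can lie across the TSS itself, where it covers the core promoter, including the TATA box where there is one. Promoters of this kind have been described mostly at genes that are silent in a tissue and poor in CpG. MNase cuts the DNA between nucleosomes, and a light and a heavy digest release different nucleosomes: those released by the light digest are called sensitive and those released by the heavy digest resistant.

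All cells were GM12878, a human B-lymphoblastoid line made by transformation with Epstein-Barr virus, so every group rests on 1 line. They were stimulated with heat-killed Salmonella typhimurium (HKST), which carries bacterial products without a live infection, for 20, 40 or 60 min, or were left untreated. Nuclei cross-linked with formaldehyde were digested with 20 U (light) or 200 U (heavy) of MNase. Fragments of 140 to 200 bp were captured over the 2 kb around each TSS, and their centers were counted per 60 bp window and given relative to each table's total (rpm). Each of the 8 tables pools 2 replicates, so no spread between replicates can be given, and intervals cover the counting of fragments only. A time point also cannot be told apart from the extent of digestion in its own tubes. The light tables rest on 9.43 to 10.5 M fragments and the heavy tables on 3.27 to 7.04 M. A member had a median of 46 to 50 light and 17 to 37 heavy fragments over the TSS. Of the members, 1829 were complete in the untreated heavy table, 306 in the 20 min light table, 734 in the 20 min heavy table, and all 2726 in the 40 and 60 min tables. The promoters of the 20 min light table lie on chromosomes 1, 10 and 11.

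Sequences of some of these promoters are shown first, because the nucleosome over the TSS lies on this DNA. Each runs 5′ to 3′ from -120 to -1 bp of the deposited TSS in the GRCh37 genome, and TATAAA is in capitals. IFNG and HRNR carry TATAAA 30 and 28 bp before the TSS, which is the usual place of a TATA box. The other 3 do not hold these letters: ALKBH7 and IFNA16 were among the members with the highest D in the untreated heavy table, and PTCHD3 was among the members most biased to the heavy digest.
IFNG, chr12:68553522-68553641, minus strand: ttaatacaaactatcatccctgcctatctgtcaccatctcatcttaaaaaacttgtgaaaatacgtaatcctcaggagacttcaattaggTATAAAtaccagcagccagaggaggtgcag
HRNR, chr1:152196673-152196792, minus strand: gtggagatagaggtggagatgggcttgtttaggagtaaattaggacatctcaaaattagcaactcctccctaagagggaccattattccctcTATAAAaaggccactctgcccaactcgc
IFNA16, chr9:21217311-21217430, minus strand: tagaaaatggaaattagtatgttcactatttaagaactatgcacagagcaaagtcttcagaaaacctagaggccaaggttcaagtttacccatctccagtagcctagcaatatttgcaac
ALKBH7, chr19:6372324-6372443, plus strand: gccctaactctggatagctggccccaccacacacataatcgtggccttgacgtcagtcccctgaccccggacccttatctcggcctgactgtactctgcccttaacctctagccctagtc
PTCHD3, chr10:27703298-27703417, minus strand: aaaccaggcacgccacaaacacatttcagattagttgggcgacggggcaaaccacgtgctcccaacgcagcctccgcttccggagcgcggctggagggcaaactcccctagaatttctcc

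Most members also had a nucleosome over the TSS in the heavy digest, which the rule did not use. In the untreated heavy digest, 1437 of 1829 members (78.6%) had D above 0.3, against 5.75% of the other eligible promoters. Over all eligible promoters this share was 14.6%. The median D of the members was 0.80, with quartiles at 0.38 and 1.23, and that of the others was -2.06. Counted in fragments, 1138 members (62.2%) held a larger share of their fragments over the TSS than an even spread over the 2 kb gives, by an exact 95% interval, while 9.99% of all eligible promoters did. The signal over the TSS was 2.01 rpm in the median member and 0.156 rpm in the median of the others. The mean over the whole 2 kb was nearly equal, at 1.13 rpm in each, so the sets differed more in where the fragments lay than in their number.

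The same held at each time after HKST. D was above 0.3 in 237 of 306 members (77.5%) in the 20 min light table and in 546 of 734 (74.4%) in the 20 min heavy table, where the shares over all eligible promoters were 11.1% and 12.9%. At 40 min it was above 0.3 in 2256 of 2726 members in the light digest (82.8%, all eligible 13.7%) and in 2124 in the heavy digest (77.9%, all eligible 16.8%). At 60 min the numbers were 2143 in the light digest (78.6%, all eligible 12.8%) and 2148 in the heavy digest (78.8%, all eligible 15.6%). All 4 tables of 40 and 60 min had D above 0.3 for 1537 members (56.4%) and for 79 of 17262 other promoters (0.458%). Among the 306 members complete in every table, 39.5% were above 0.3 in all 7 tables that did not choose them, and so were 7 of 2293 others (0.305%). Most members thus passed the threshold again in any 1 other table, and fewer passed it in every table.

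**Figure D1:**
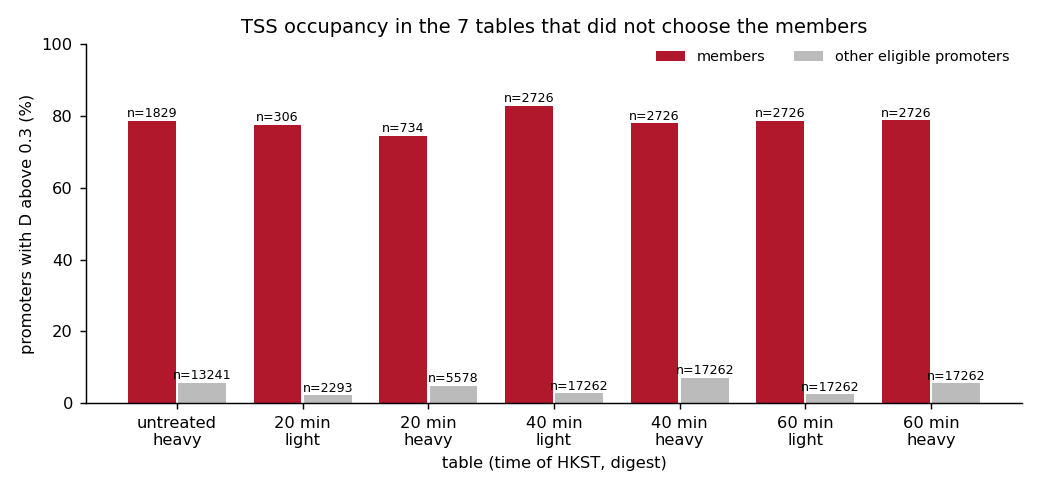
Share of promoters with D above 0.3 (y axis, percent) in each of the 7 tables that did not choose the members (x axis, time of HKST and digest), for members (red) and other eligible promoters (grey), with the number of promoters above each bar. Members lie between 74.4% and 82.8% in every table, and the others between 2.22% and 7.11%.

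On average the members carried 1 sharp peak over the TSS where other promoters had a trough. The average profile of members was highest at -10 bp in 7 of 8 tables and at -20 bp in the 20 min light table. This peak reached 2.76 to 2.85 rpm in the heavy tables and 2.37 to 2.67 rpm in the light tables. The 2.67 rpm belongs to the untreated light table, where the rule chose the members for a high signal in this window. Between -300 and 0 bp the members' signal was lowest at -300 bp (0.790 to 0.937 rpm). That is the edge of the range searched, so the position of an upstream trough is not shown. Downstream the signal was lowest at 280 to 290 bp (0.829 to 0.998 rpm), close to the other edge of the range searched. In the heavy tables of untreated cells and of 40 and 60 min, lower peaks followed at -600 or -610 bp (1.05 to 1.10 rpm), at -410 or -390 bp (0.952 to 0.992 rpm) and at 380 or 390 bp (1.22 to 1.25 rpm). In the other promoters the signal between -300 and 0 bp was lowest at -50 to -70 bp, where it was 0.421 to 0.495 rpm. Their flanking peaks lay near -210 and 150 bp, which are the positions of the -1 and +1 nucleosomes of a canonical promoter. The members thus had their central nucleosome where the others had the gap between these 2.

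**Figure D2:**
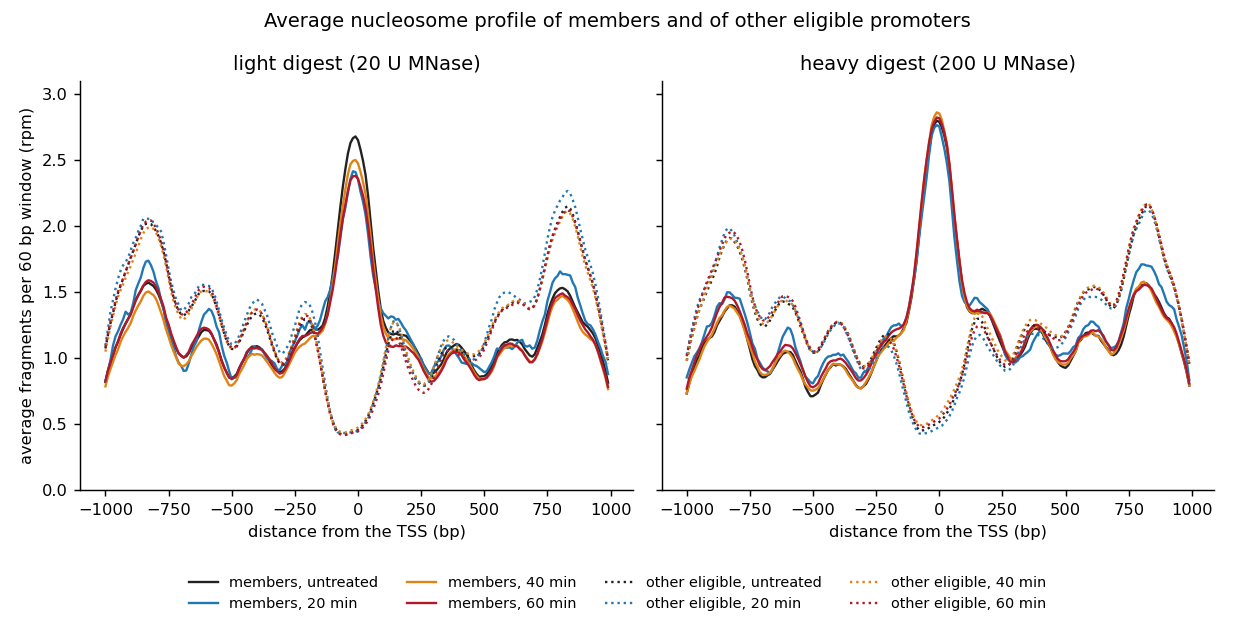
Average fragment signal (y axis, rpm per 60 bp window) against the distance from the TSS (x axis, bp) in the light digest (left) and the heavy digest (right), for members (solid) and other eligible promoters (dotted) at each time. Members peak at -10 bp (-20 bp at 20 min in the light digest) at 2.37 to 2.85 rpm. The others dip to 0.421 to 0.495 rpm just upstream of the TSS. In the untreated light digest the members were chosen by their signal over the TSS.

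The sharp average hides a spread of positions. In the 60 min heavy table the highest bin of a member within -100 to +40 bp had its median at -15 bp and its quartiles at -50 and 20 bp. In 1268 of 2726 members (46.5%) it lay between -60 and 0 bp. In 826 members (30.3%) it lay within 10 bp of an edge of the window, so for these the window does not show where the nucleosome is centered. The lowest 150 bp stretch between -500 and +490 bp, in the light and heavy 60 min tables summed, was centered over the TSS in 1.28% of members and in 38% of the others. In members this depleted stretch lay upstream in 46.2%, with a median center at -320 bp, and downstream in 52.5%, with a median center at 290 bp.

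The 10 members with the highest D in the untreated heavy table, among those with a mean of 0.5 rpm or more there, were GLIPR1L1, a sperm protein, RLN2, the hormone relaxin-2, HECW2, a ubiquitin ligase, ALKBH7, a mitochondrial protein of the AlkB family, MIR331, IFNA16, KRTAP2-3, LINC00929, NRXN3, a presynaptic adhesion protein, and COL4A3BP, the ceramide transfer protein. Their D in that table was 2.45 to 2.86. At ALKBH7 (TSS at chr19:6372444), D was 2.45 untreated, 2.48 at 40 min and 2.47 at 60 min in the light digest, and 2.60, 2.63 and 2.46 at the same times in the heavy digest. Of its 82 untreated heavy fragments, 56 lay over the TSS (68.3%, exact 95% interval 57.1 to 78.1), where an even spread gives 10.0%. The deposited TSS of ALKBH7 lies 361 bp upstream of the nearest start of a transcript in GENCODE, so the occupied site is not at an annotated start there. The deposited starts of RLN2, HECW2 and COL4A3BP lie more than 50 bp downstream of the nearest GENCODE start. RLN2 had D of 2.80 in the untreated heavy table, 3.07 at 40 min and 2.94 at 60 min, and these were the highest among the 10 in the heavy digest at both later times. D of these 10 was 1.47 or higher in every table where they were complete. They were picked for a high value in the untreated heavy table, so their differences from that table are a description and no call is given for them.

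KRTAP2-3 and IFNA16 belong to clustered gene families in which most promoters were members. The keratin-associated proteins, which cross-link keratin in hair, had 68 members among 89 eligible promoters (76.4%), with 40 of 49 on chromosome 21, 24 of 29 on chromosome 17 and 4 of 11 on chromosome 11. Chromosome 21 as a whole had the highest share of members, 29%, and without these genes it had 16.1%. The type I interferons, the antiviral cytokines of chromosome 9, had 12 members among 17 (70.6%), all of them IFNA genes. The clustered protocadherins are neuronal adhesion proteins that are each driven by a promoter of their own. They had 12 members among 22 (54.5%), of which 10 were PCDHB genes. Only 5 of these 12 had a GENCODE transcript start no more than 50 bp from the deposited TSS. With other processing choices the protocadherin share ran from 38.5% to 62.5%, that of keratin-associated proteins from 69.7% to 80.9%. For type I interferons it ran from 50% to 76.5%. The family shares are a description, since the rule chose the members on the same table. Copies within each family also resemble each other in sequence. The authors discarded reads that aligned to more than 1 place, so fragments of near-identical copies may be missing and their values are uncertain.

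In the untreated heavy table, which did not choose the members, all eligible promoters of these families also stood above the rest. D was above 0.3 at 43 of 57 keratin-associated promoters (75.4%), at 10 of 14 type I interferon promoters (71.4%) and at 11 of 19 protocadherin promoters (57.9%), where 14.6% of all eligible promoters were. Their median D there was 1.16, 0.86 and 0.43, against -1.71 over all eligible promoters. KRTAP2-3 had D of 2.56 in the untreated heavy table, 2.42 at 40 min and 2.52 at 60 min. KRTAP6-1 had 2.39, 2.47 and 2.26 at the same times. IFNA16 had 2.55, 2.32 and 2.24, and IFNA13 had 2.04, 2.37 and 2.06. PCDHB3 had 2.02, 1.54 and 1.70. All of these promoters were above the threshold after HKST, in the digest that the rule did not use. They are the highest of their lists in the untreated heavy table, and their differences from it are a description.

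Other tissue-restricted lists had more members than the 13.6% of all eligible promoters. C-type lectins had 12 of 34 (35.3%), keratins 19 of 54 (35.2%), genes of the epidermal differentiation complex 13 of 38 (34.2%), interleukins 15 of 45 (33.3%), beta-defensins 7 of 21 (33.3%) and cancer-testis antigens 11 of 34 (32.4%). Olfactory receptors, which are silent outside the nose, had 64 of 355 (18%). Genes that every cell uses had few: ribosomal proteins had 2 of 79 (2.53%), mitochondrial ribosomal proteins 2 of 71 (2.82%), splicing factors 2 of 64 (3.12%), the list of RNA polymerase II initiation factors 3 of 68 (4.41%), and oxidative phosphorylation and proteasome genes 7 (5.07%). None of 28 promoters of immediate early genes, which respond first to a stimulus, was a member. The lowest of these shares rest on few promoters: with a window of -70 to 70 bp the share was 7.14% for immediate early genes and 1.27% for ribosomal proteins, and with at most 10 bins without a value it was 0 and 7.14%. No expression was measured here, so these are counts by gene name only.

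**Figure D3:**
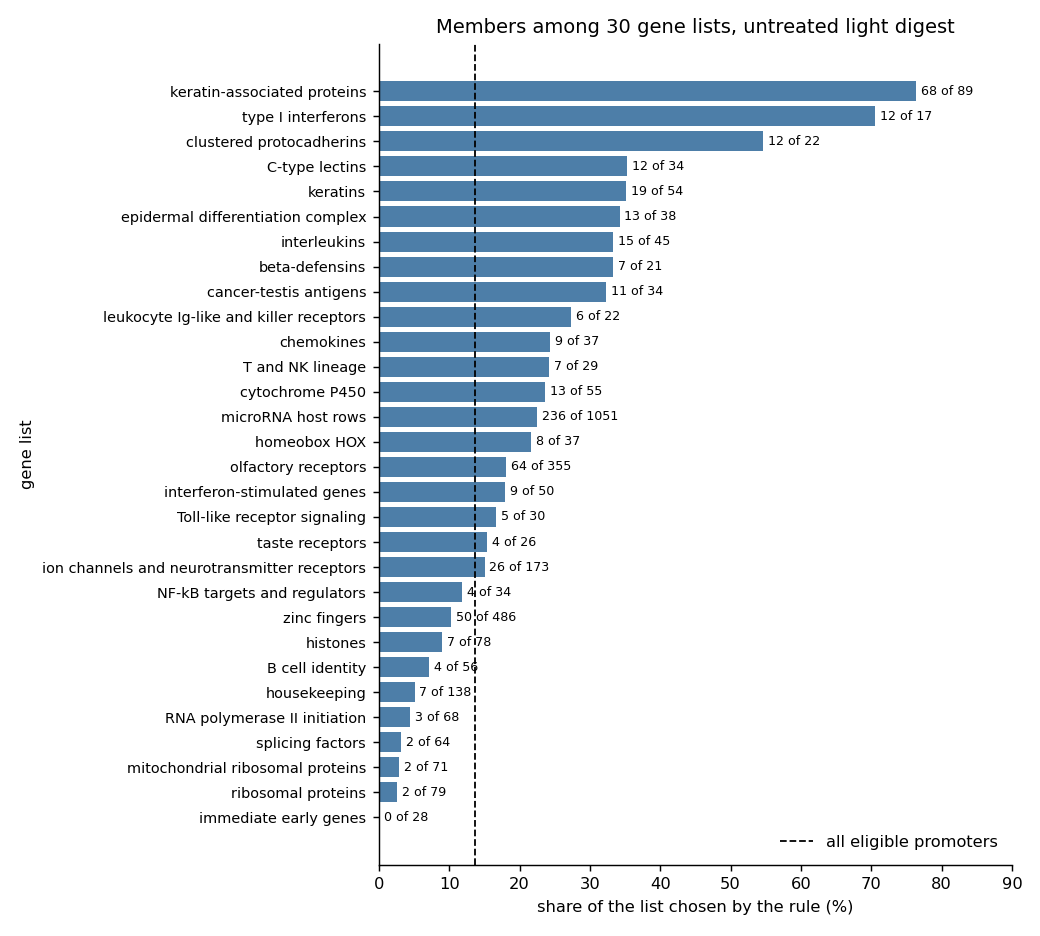
Share of the eligible promoters of each of 30 gene lists that the rule chose (x axis, percent), with members and eligible promoters beside each bar and a dashed line at the 13.6% of all eligible promoters. Keratin-associated proteins, type I interferons and clustered protocadherins lie at 76.4%, 70.6% and 54.5%, and immediate early genes at 0.

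Non-coding genes were common among the members. Members made up 33% of 312 eligible promoters named for a snoRNA, 22.5% of 1051 named for a microRNA and 23% of 745 of lncRNA genes in GENCODE, against 12% of 15502 of protein-coding genes. The deposited start of a small RNA can be the end of a processed RNA and not a promoter. MIR331 had the highest D of all eligible promoters in the untreated light table, 2.49, and 2.58 in the untreated heavy table, 2.41 at 20 min, 2.72 at 40 min and 2.60 at 60 min in the heavy digest. MIR181A2 had 1.97 untreated, 1.66 at 40 min and 2.2 at 60 min in the heavy digest. The mature microRNAs of both, from RefSeq with the seed (bases 2 to 8) in capitals, show that they share no seed.
hsa-miR-331-5p: cUAGGUAUggucccagggaucc
hsa-miR-331-3p: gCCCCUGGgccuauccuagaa
hsa-miR-181a-5p: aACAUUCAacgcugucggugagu
hsa-miR-181a-2-3p: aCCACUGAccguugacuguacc
Of members whose name is in GENCODE, 983 of 2408 (40.8%) had the TSS inside another gene, and 29.4% of the other eligible promoters did. A GENCODE transcript start was found no more than 50 bp from the deposited TSS in 75.8% of members and in 81.1% of the others. The part of misplaced starts in the result was not tested.

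Members lay on DNA that was poorer in GC and CpG. The GC content of -100 to +40 bp had a median of 51.1% in members and 65.2% in the other eligible promoters. The ratio of observed to expected CpG, from -250 to +50 bp, had medians of 0.286 and 0.746 in the same order of sets. With a GC content of 50% or more and a ratio of 0.6 or more taken as CpG-rich, 14.1% of members and 61% of the others were CpG-rich. When the eligible promoters were cut into 5 classes of about equal size by GC content, the share of members from the lowest to the highest class was 29.5%, 24.5%, 9.67%, 2.32% and 0.0758%. In the untreated heavy table, Pearson's r between GC content and D was -0.55 across 15070 eligible promoters, which share a library and its depth. Among members, the share with D above 0.3 in the untreated heavy table was 226 of 286 (79%) in CpG-rich and 1211 of 1543 (78.5%) in CpG-poor promoters. Over all eligible promoters of each class this share was 4.84% in CpG-rich and 29.5% in CpG-poor promoters.

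Core promoter letters differed in the same way. TATAAA, on either strand from -250 to +50 bp, was found in 18.9% of members and in 9.36% of the others (all promoters 10.7%). GGGCGG, the core of a GC box, was found in 18.5% of members and in 57.4% of the others (all promoters 52.8%). CCAAT was found in 36.5% of members and in 35.4% of the others (all promoters 35.4%). On the sense strand and 40 to 20 bp before the TSS, where a TATA box lies, 79 members (2.90%) held TATAAA, and 1.62% of the others did. These 79 included IFNG and HRNR, whose sequences stand above, CCL4, IL10, IL13 and IL2, the liver genes CYP2C8 and CYP7A1, and 7 keratin-associated proteins. Their median D in the 60 min heavy table was 0.57, against 0.79 in the other members. A match is a description of the letters and shows no binding.

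Heat-killed bacteria present lipopolysaccharide to Toll-like receptors, whose adaptors activate NF-kB and the interferon pathway. Toll-like receptor signaling had 5 members among 30 eligible promoters (16.7%), interferon-stimulated genes had 9 among 50 (18%), and NF-kB targets and regulators had 4 among 34 (11.8%). The share over all eligible promoters was 13.6%. In the untreated heavy table, which did not choose the members, D was above 0.3 at 4 of 27 eligible promoters of Toll-like receptor signaling (14.8%), at 4 of 42 of interferon-stimulated genes (9.52%) and at 1 of 29 of NF-kB targets and regulators (3.45%), where 14.6% of all eligible promoters were.

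The Toll-like receptor members were CD14, the lipopolysaccharide co-receptor of monocytes, TLR4, the lipopolysaccharide receptor, TLR8, an endosomal RNA receptor, the adaptor MYD88 and the kinase IKBKE. The deposited starts of CD14, MYD88 and IKBKE lie more than 50 bp from the nearest GENCODE start. At CD14 and IKBKE that start is outside the window, so the occupied site is not at an annotated start there. CD14 had D of 0.86 untreated, 0.47 at 40 min and 0.87 at 60 min in the light digest, and 0.81, 1.07 and 0.84 in the heavy digest. TLR8 had 1.47 untreated, 1.05 at 40 min and 1.3 at 60 min in the heavy digest, and IKBKE had 0.86, 0.94 and 1.20. These 3 were above 0.3 in every table where they were complete. TLR4 and MYD88 did not: in the heavy digest TLR4 had -0.63 untreated, 0.16 at 40 min and -0.05 at 60 min, and MYD88 had 0.01, 0.37 and -0.02. At TLR4 the heavy fragments over the TSS were 12 at 40 min and 21 at 60 min, against 9 untreated, and the intervals of the odds ratios, 0.67 to 5.00 and 0.64 to 3.84, included 1.

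The NF-kB members were CCL4, a chemokine, IL1B, an inflammatory cytokine, LTA, lymphotoxin alpha, and TNFRSF9, the receptor 4-1BB. At CCL4 (TSS at chr17:34431220) D in the light digest was 0.40 untreated, 0.15 at 40 min and 0.68 at 60 min. In the heavy digest it was -0.31 untreated, -0.59 at 20 min, -0.95 at 40 min and 0.12 at 60 min, so it was under the threshold there. The odds ratio of its heavy window fragments against untreated was not called at any time, with intervals of 0.29 to 2.23 at 20 min, 0.17 to 1.87 at 40 min and 0.67 to 3.12 at 60 min. The light digest gave the higher signal over this TSS after HKST: the log2 ratio of light to heavy signal was 1.45 at 40 min and 1.35 at 60 min. Untreated the ratio was 1.17, which is a description, since the untreated light table chose the members. TNFRSF9 had D of -0.24 untreated, 0.50 at 20 min, 0.61 at 40 min and 0.46 at 60 min in the heavy digest. It was higher at each time, but the intervals of the odds ratios included 1 (0.85 to 4.17, 0.92 to 4.75 and 0.90 to 3.86). IL1B had 0.31, 0.30 and 0.48 in the heavy digest, untreated and at 40 and 60 min. LTA was not complete in the untreated heavy table and had -0.12 at 40 min and 0.36 at 60 min.

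Among interferon-stimulated genes, GBP6, a guanylate-binding protein, had the highest D: 2.04 untreated, 1.53 at 20 min, 1.71 at 40 min and 1.75 at 60 min in the heavy digest. It leads this list by its untreated value, so its lower values after HKST are a description. The chemokine CXCL10, which interferon also induces, had 0.99 untreated, 1.32 at 40 min and 1.04 at 60 min. IFITM3, an antiviral membrane protein, had 0.26, 0.59, 0.78 and 0.63, untreated and at 20, 40 and 60 min. RSAD2, the antiviral enzyme viperin, had -0.21 untreated, -0.26 at 40 min and -0.34 at 60 min, under the threshold in the heavy digest at each of these times. IRF9, a subunit of the interferon-activated complex ISGF3, had 0.14 untreated, 0.24 at 20 min, 1.04 at 40 min and 0.68 at 60 min. Its heavy window share was called higher at 40 min (22 of 93 fragments, odds ratio 2.21, interval 1.05 to 4.7) and was not at 60 min (0.86 to 3.20). The deposited TSS of IRF9 lies 409 bp downstream of the nearest GENCODE start. Those of GBP6, IFITM3 and RSAD2 also lie more than 50 bp from the nearest one.

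Genes that mark B cells were set beside those of T and NK cells, because GM12878 is a B cell line. Of 11 B cell marker genes, among them MS4A1, CD79A and PAX5, none was a member, and the median D of their promoters in the 60 min heavy table was -0.72. Of 8 markers of T and NK cells only CD4 was, among 7 eligible promoters, whose median was -0.09. The share of members over all eligible promoters was 13.6%, so 1 of 7 shows no excess. In the heavy digest CD4 had D of 0.13 untreated, -0.02 at 20 min, 0.06 at 40 min and 0.41 at 60 min. In the light digest it had 0.10 at 40 min and 0.26 at 60 min, so it passed 0.3 again only in the 60 min heavy table. In the wider lists, B cell identity had 4 of 56 (7.14%), and T and NK lineage had 7 of 29 (24.1%), against 13.6% of all eligible promoters. The 4 members of the B cell identity list were FCRL6, FCRLA, the tetraspanin CD53 and the kinase BTK. This list was made by gene name, which does not show that each gene is specific to B cells. In the heavy digest FCRL6 had D of 1.17 untreated, 0.77 at 20 min, 1.44 at 40 min and 1.3 at 60 min. CD53 had 0.07 untreated and at 20 min, 0.69 at 40 min and 0.62 at 60 min, with no call. BTK had 0.66 at 40 min and 0.17 at 60 min. Of the T cell and NK members, the adhesion molecule CD2 had 0.58, 0.25, 0.52 and 0.17, untreated and at 20, 40 and 60 min, and NKG7, a granule protein, had 0.88, 0.70 and 0.90, untreated and at 40 and 60 min.

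**Figure D4:**
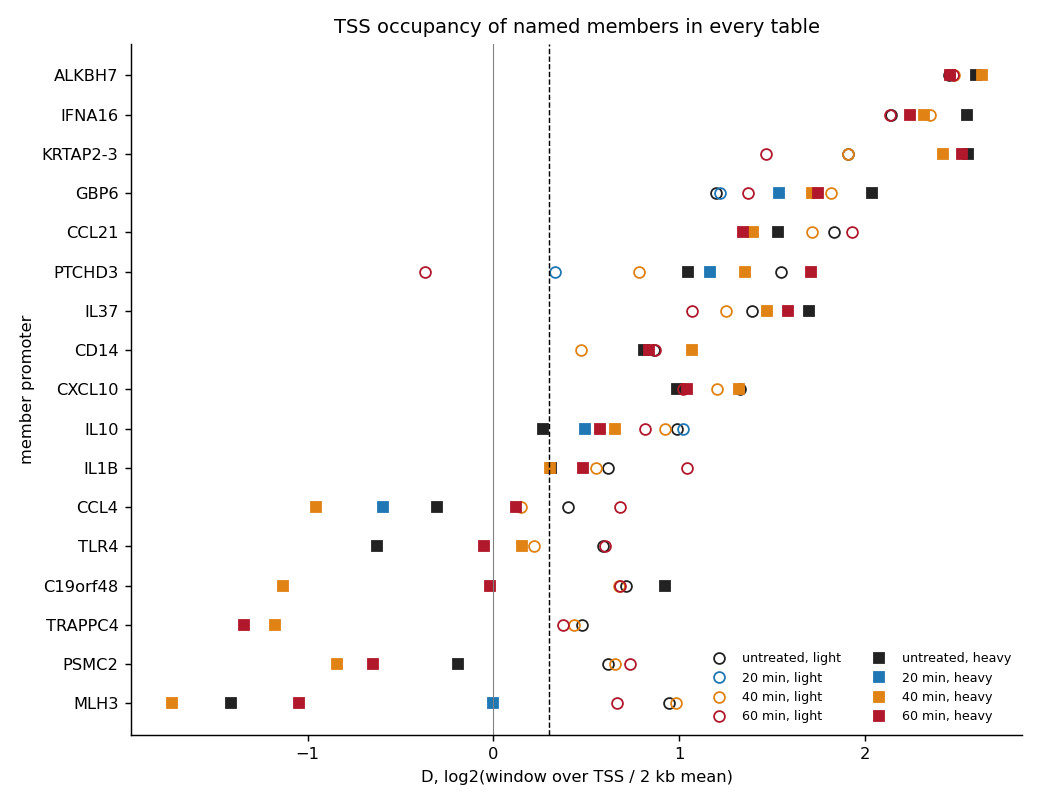
D (x axis, log2) of 17 named members (y axis) in each table where they were complete; open circles are light and filled squares heavy digests, colored by time of HKST, and the dashed line is the threshold of 0.3. ALKBH7, IFNA16 and KRTAP2-3 lie between 1.47 and 2.63 in every table, while TRAPPC4, PSMC2 and MLH3 lie above 0.3 in the light and under 0 in the heavy tables.

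In the heavy digest, where the rule used neither side, the median change of D against untreated was -0.047 at 20 min (734 members), -0.013 at 40 min and -0.046 at 60 min (1829 members). The other eligible promoters had medians of -0.051, -0.053 and -0.047 at the same times. All 3 times share the untreated heavy table. At 20 min 12 members were called higher (1.63%, all eligible 0.808%) and 27 lower (3.68%, all eligible 1.36%), by an exact 95% interval of the odds ratio of fragments inside against outside the TSS window. At 40 min 36 were called higher (1.97%, all eligible 0.803%) and 40 lower (2.19%, all eligible 0.829%). At 60 min 41 were called higher (2.24%, all eligible 0.737%) and 78 lower (4.26%, all eligible 1.86%). Without any change an interval of this level leaves up to 2.5% outside on each side. The members' windows were deeper: the median member had 25 heavy window fragments in the untreated table and the median of the others had 2. The part of this depth in the members' higher shares was not tested.

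The 3 members with the largest falls of D in the heavy digest, by the mean of 40 and 60 min, were LOC201651, RHEB and C19orf48. The heavy tables of untreated cells, 40 and 60 min held 5.12, 3.27 and 7.04 M fragments. Fragment numbers of different times are therefore given with D, which sets the window against the whole 2 kb. LOC201651 had 0 of 59 heavy fragments over the TSS at 40 min, which allows a share of up to 5.08%. It had 13 fragments there at 60 min and 13 untreated. Its D was 0.35 untreated, -2.95 at 40 min and -0.18 at 60 min, so it stayed below the untreated value. RHEB, a small GTPase that activates mTORC1, had 1 fragment over the TSS at each time, against 8 untreated. Its D was -1.09 at 40 min and -1.94 at 60 min, against 0.10 untreated. C19orf48 had 2 and 9 fragments, against 17 untreated (D -1.14 and -0.02, against 0.92). The 3 largest rises were KRTAP1-1, LINC00918 and ZNF117. KRTAP1-1 had 5 fragments at 40 min and 19 at 60 min, against 3 untreated (D -0.72 and 0.50, against -1.52). LINC00918 had 19 and 17, against 6 (D 0.91 and -0.26, against -0.93). ZNF117 had 11 and 18, against 5 (D 0.26 and -0.18, against -1.43). All 6 rest on few fragments, and they were picked by this change, so their values are a description.

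Neither the 60 min nor the 40 min tables chose the members, and their comparison was added after the data were seen. In the light digest the median change of D at 60 min against 40 min was -0.079 in members and -0.025 in the other eligible promoters. There 7.37% of 2726 members were called lower at 60 min (all eligible 2.71%) and 62 members were called higher (2.27%, all eligible 1.24%). In the heavy digest the median change was -0.039 in members and 0.013 in the others, with 72 members called lower (2.64%, all eligible 1.34%) and 42 called higher (1.54%, all eligible 0.63%). More members were thus called lower than higher at 60 min in both digests. In the light tables of both times the median member had 46 window fragments and the median of the others had 6, and the part of this depth was not tested. Against untreated cells the median change of D in the light digest was -0.10, -0.047 and -0.12 at 20, 40 and 60 min, which is a description, since the untreated light table had chosen the members.

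The members' TSS nucleosomes tended toward the heavy digest after HKST. Sensitivity is log2 of light over heavy signal from -100 to +40 bp, after 0.122 rpm was added to both. Members had medians of -0.12, -0.067 and -0.13 at 20, 40 and 60 min, against 0.051, 0 and 0 in the other eligible promoters. Untreated it was 0.13, where the light table had chosen the members, so no change with time can be read from it. The median of the others had 6 light fragments over the TSS at 40 and 60 min, and 1 and 3 heavy fragments. Their medians of 0 thus rest on nearly empty windows. Among CpG-poor promoters (defined above), members had medians of -0.072 and -0.15 at 40 and 60 min, and the others -0.036 and -0.12. The CpG-poor others thus leaned the same way, by less. The heavy digest was called higher in 56 of 306 members at 20 min (18.3%, all eligible 8.81%), in 459 at 40 min (16.8%, all eligible 8.25%) and in 766 at 60 min (28.1%, all eligible 14.1%). The light digest was called higher in 38 at 20 min (12.4%, all eligible 4.19%), in 225 at 40 min (8.25%, all eligible 2.99%) and in 364 at 60 min (13.4%, all eligible 8.13%). More calls at 60 min go with the deeper heavy table of that time, 7.04 M fragments against 3.27 M at 40 min, and the part of this depth was not tested. Compared with their own flanks, from -500 to -210 bp and from 150 to 440 bp, the members' TSS was lower in sensitivity by medians of 0.092 at 20 min, 0.098 at 40 min and 0.16 at 60 min, and the TSS of the other promoters was higher by 0.092, 0.10 and 0.11.

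Many promoters showed the same bias at 40 and 60 min, which share no library. The light digest was called higher at both times in 4.81% of members (all eligible 1.63%), which is 58.2% of those called at 40 min and 36% of those called at 60 min. The heavy digest was called higher at both times in 352 members (12.9%, all eligible 5.51%), which is 76.7% of those called at 40 min and 46% of those at 60 min. Of the members called at 40 min in each direction, 1 was called in the opposite direction at 60 min. Pearson's r of sensitivity between both times was 0.70 across the 2726 members and 0.61 across the 17262 other eligible promoters.

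Members with the light digest higher at both times (the light class) and the 352 with the heavy digest higher at both times (the heavy class) differed in sequence and context. The light class had a median GC content of 48.2%, the heavy class of 59.6% and all other members of 49.6%. In the untreated heavy table, the median D was 0.57 in the light class, 1.15 in the heavy class and 0.76 in all other members. In the light class 35.1% were CpG-rich and 64.9% had another GENCODE start between 150 and 1000 bp away, while in the heavy class these shares were 17% and 40.3%, and in all other members 12.4% and 40.3%.

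The light class included the following genes, named after their values were seen. MLH3, a mismatch repair protein, had 1.77 rpm in the light and 0.0782 rpm in the heavy digest untreated, 1.43 and 0.0917 rpm at 40 min, and 1.64 and 0.237 rpm at 60 min. TXNDC17, a thioredoxin-like protein, had 4.06 and 1.87 rpm untreated, 5.69 and 0.621 rpm at 40 min, and 5.85 and 1.71 rpm at 60 min. The untreated light values of MLH3 and TXNDC17 come from the table that chose the members, so differences from them are a description. PSMC2, a proteasome ATPase, had 41 light and 3 heavy fragments over the TSS at 40 min and 52 and 6 at 60 min. TRAPPC4, a subunit of a vesicle tethering complex, had 53 and 4 at 40 min and 56 and 8 at 60 min. MRPL35, of the mitochondrial ribosome, and the splicing factor U2AF2 were in the class too, with sensitivities of 2.71 and 1.75 at 40 min and of 1.78 and 2.36 at 60 min. Of the members in the list of mitochondrial ribosomal proteins, both were in this class, the other being MRPS18B.

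The heavy class included the following genes, also named after their values were seen. PTCHD3, a patched-related protein of the testis, had 2.02 rpm in the light and 2.85 rpm in the heavy digest untreated, 0.703 and 3.0 rpm at 20 min, 1.12 and 3.61 rpm at 40 min, and 0.436 and 4.61 rpm at 60 min. The untreated light value of PTCHD3 comes from the table that chose the members, so its lower light values after HKST are a description. MAGEA8, a cancer-testis antigen, had 24 light and 26 heavy fragments at 40 min and 10 and 42 at 60 min. KIF4B, a testis kinesin, had 15 and 23 at 40 min and 13 and 36 at 60 min. The ion channel TRPM5 of taste cells had 20 and 23 at 40 min and 10 and 36 at 60 min. As the light tables were deeper, equal fragment numbers mean a higher heavy signal. By list, the median sensitivity of members at 40 and 60 min was -0.35 and -0.54 in keratin-associated proteins, -0.43 and -0.63 in clustered protocadherins, -1.07 and -0.81 in cancer-testis antigens, and 0.27 and 0.17 in type I interferons.

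The bias followed base composition. Cut into 3 classes by GC content, members of the lowest class (29.1 to 46.1%, 857 members) had a median sensitivity of 0.32 at 40 min and 0.33 at 60 min. In the middle class (46.8 to 54.6%, 928 members) it was -0.13 and -0.21, and in the upper class (55.3 to 80.9%, 941 members) -0.45 and -0.62. At 60 min the heavy digest was called higher in 4.20% of the lower, 26.9% of the middle and 51% of the upper class. The light digest was called higher in 24.3%, 9.70% and 7.01%. Over all eligible promoters of any GC content these calls were 14.1% (heavy) and 8.13% (light). The median member had 37 heavy fragments over the TSS at 60 min and the median of the others 3. The part of this depth was not tested. Pearson's r between GC content and sensitivity across the 2726 members was -0.43 at 40 min and -0.49 at 60 min. The other eligible promoters in the same GC ranges had 0.51 and 0.50 in the lower range and 0.043 and -0.0039 in the middle range, so the members had the lower median in both. In the upper range the median of the others was 0 at both times, where few fragments lay over the TSS in either digest. GC content moved with both the choice of the members and their sensitivity, and its part in either was not tested further.

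**Figure D5:**
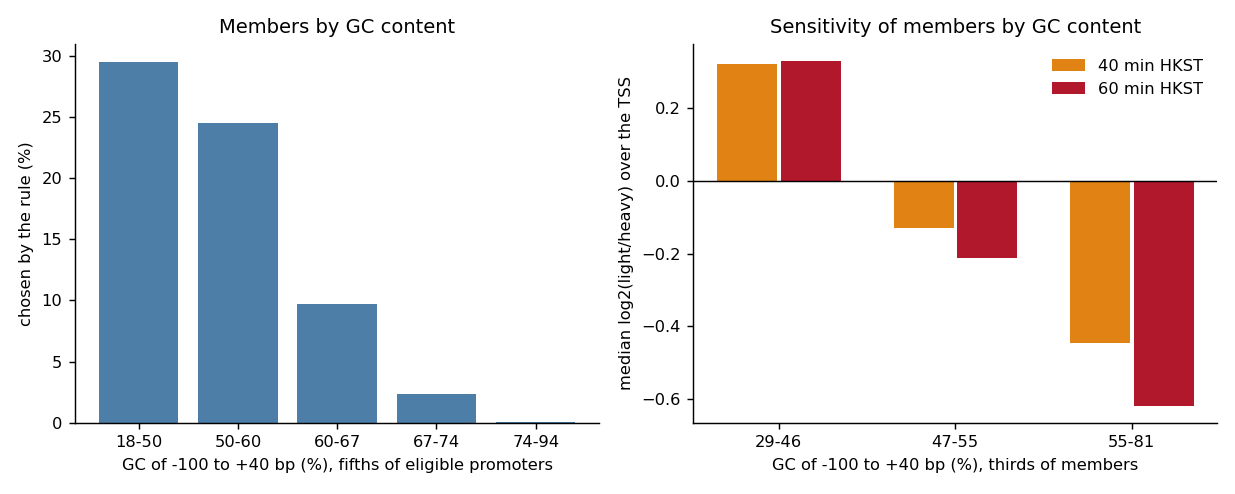
Left, share of eligible promoters that the rule chose (y axis, percent) in 5 classes by the GC content of -100 to +40 bp (x axis). Right, median sensitivity of members, log2 of light over heavy (y axis), in 3 classes of the members by GC content (x axis) at 40 min (orange) and 60 min (red); the share is 29.5% in the lowest and 0.0758% in the highest GC class, and the sensitivity at 60 min is 0.33 in the lowest and -0.62 in the highest class.

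Some members had no excess over the TSS in the untreated heavy digest. There D was below 0 in 10.2% of 1829 members, and 51 of these (27.3%) were again below 0 in both heavy tables of 40 and 60 min. Of the 1437 members with D above 0.3, 13 (0.905%) were below 0 in both, and 1165 (81.1%) were above 0.3 in both. The median member of both sets had a similar number of untreated heavy fragments over the 2 kb. In the light digest the set below 0 had a median D of 0.36 at 40 min and 0.41 at 60 min, and the set above 0.3 had 0.82 and 0.69. GTF2F1, a subunit of the general factor TFIIF, was in the set below 0 and is named after its values were seen. Its D was 1.11 untreated, 0.96 at 40 min and 0.90 at 60 min in the light digest, and -0.13, -0.58 and 0.27 in the heavy digest.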

How the data were processed

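The data were 8 tables, 1 for each time and digest, from 16 samples; 5 held all 21857 promoters and 3 held 2801, 6779 and 16260 complete promoters, and the rest of these was not analysed here. The authors removed adapters, mapped the read pairs to hg19 with bowtie2, kept unique alignments, counted fragment centers per window of 60 bp in steps of 10 bp, scaled the counts to rpm and pooled 2 replicates per table; the submitters' notes list Bowtie2 2.2.2. The deposited values (a normalized signal in rpm, not counts) rise in steps worth 0.5 of 1 fragment, which gave fragment numbers, and each fragment enters 6 windows. The last line of 3 tables was partial and left out. Bins without a value were left out (9.90% to 10.8%). hg19 coordinates match GRCh37, whose sequence and GENCODE 44 annotation were used.

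Members and lists were chosen with earlier results of these data known. Intervals were exact (Clopper-Pearson for shares, conditional for odds ratios), at 95%, without correction for the number of promoters, and cover counting error only, since PCR copies are not independent molecules. No p-value was calculated, because replicates were pooled. Named genes were the 10 highest untreated heavy D, the 3 largest rises and falls, the 2 highest of each list with 3 or more members, up to 6 of the immune lists and 3 on either side of the threshold. IFNG, IL2, IL10, IL13, CYP2C8, CYP7A1, CXCL10, LTA, BTK, CD2, CD4, GTF2F1 and the genes of the light and heavy classes were named after their values were seen. Calls were tested on simulated fragments. Python 3.11.15, numpy 2.4.6, scipy 1.17.1 and pandas 2.3.3 were used. Some items that the rule names are not reported here.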

Additional observations from a re-analysis of the deposited data

How the results depend on the processing

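The 44 values were recomputed under 15 alternatives, 11 of them on all 44 values and the other 4 on the 9 to 43 values they bear on or could give. Of the alternatives, 2 (starts within 50 bp of a GENCODE start, and promoters outside any other GENCODE gene) were chosen after seeing the data, as was the comparison of 60 with 40 min; of 559 recomputed values, 490 stayed within the binomial 95% interval of the reported one (or within 1.5 times the count of members), 69 moved and none changed sign beyond it. The share of members with D above 0.3 in the untreated heavy table ran from 76.3% (reference of D limited to -500 to 490 bp) to 80.9% (at most 10 bins without a value). The share above it in all tables of 40 and 60 min moved to 51.9% with a threshold of 0.5, 53.3% with a pseudocount of 0.5 and 53.2% with the limited reference. That reference also gave a median sensitivity of -0.092 at 40 min, a GC median of 52.5% and 18.1% CpG-rich members. A minimum mean of 1 rpm left 1810 members, with 11.6% CpG-rich, sensitivities of -0.10 and -0.19 at 40 and 60 min, and the heavy digest higher in 18.5% and 31.2%. At most 10 bins without a value left 1048 members, with 16.5% CpG-rich, a median change of -0.068 at 60 min, sensitivities of -0.14 and -0.21, the heavy digest higher in 19.1% and 30.2% and the light digest in 6.39% and 10.9%. Starts near GENCODE gave -0.091 at 40 min and 12.3% CpG-rich. Promoters outside other genes left 1425 members, with sensitivities of -0.11 and -0.19, the heavy digest higher in 18.4% and 30.5% and the light digest in 6.81% and 12%. The median change at 60 against 40 min moved to -0.066 in the light digest with a pseudocount of 0.5, to -0.038 (light) and -0.018 (heavy) with the limited reference, and to -0.059 (heavy) with at most 10 bins without a value. The cause of these moves was not tested. Leaving out 1 replicate was not possible, since each table pools its replicates. No paired analysis was possible because the columns carry no replicate number. Depth limits single promoters: at 40 min the median member had 17 heavy fragments over the TSS.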
